A study of Mus musculus with 12 samples.

Results

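The peaks described here are the open-chromatin regions that differed in accessibility between the genotypes and that the deposited annotation placed in the first intron of a transcript. They were taken by that annotation alone, and 3971 of the 23932 listed peaks qualified, which is 36.7% of the 10808 listed peaks in introns. Both assays were run on CD8+ T_prog_ cells, the progenitor population that renews the autoreactive CD8 response in type 1 diabetes, sorted from pancreatic lymph nodes of nonobese diabetic mice. All mice carried the NY8.3 T cell receptor transgene, which recognizes the β cell antigen IGRP. *NOD-TCR 8.3 UTX TCD* mice had floxed alleles of *Kdm6a* and *Lck-Cre*, so that UTX was deleted in T cells only, and *NOD-TCR 8.3 WT* littermates lacked Cre. Only females were used, the ages of the mice are not given in the sources used here, and the floxed allele and Cre had been bred from C57BL/6 onto the NOD background. The sort was Ly108 without CXCR6 by the labels and Ly108+CD39- by the methods. Each assay had 3 libraries per genotype.

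First introns of mammalian genes often hold enhancers and the downstream edge of the promoter, and they tend to be longer than later introns. UTX removes methyl groups from lysine 27 of histone H3 and also works, without its enzymatic activity, as a subunit of the MLL3 and MLL4 complexes that mark enhancers. ATAC-seq reports where a transposase can insert adapters, so a higher read count at a region means more accessible chromatin.

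Accessibility is given as the authors' concentration, the log2 of the mean normalized read count of a peak over the libraries of a genotype, and the difference is the UTX TCD value minus the WT value. These are group means without values per library, and the differences therefore carry no replicate spread. Because the list holds only peaks the authors had selected for a difference between these genotypes, counts and medians of accessibility are a description with no test, and small differences are missing from them (the smallest absolute difference among first-intron peaks was 0.19). RNA-seq depth, estimated from the smallest step of each library's values, was 146456724, 144503203 and 193568919 reads in the WT libraries and 61512402, 175462433 and 187275082 in the UTX TCD libraries, of which replicate 1 was the shallowest. A gene was called at an adjusted p under 0.05 (limma, all genes tested) with an absolute log2 fold change over 0.5. For a single gene, 3 libraries against 3 allow no exact permutation p below 0.10.

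*Kdm6a* itself had no listed first-intron peak. Its normalized count was 28365, 28949 and 29172 in WT and 24159, 24792 and 24579 in UTX TCD libraries, so every UTX TCD library was lower. A sum over the whole gene does not tell deleted from remaining exons. The T cell genes *Cd8a*, *Cd8b1*, *Cd3e*, *Cd3d* and *Trac* summed to between 673450 and 762274 normalized counts in the 6 libraries. Of the 4 progenitor and sort markers, 3 were not called and had overlapping counts. *Slamf6*, which encodes Ly108, was counted at 27732, 34096 and 23305 in WT and 36665, 30980 and 35425 in UTX TCD libraries (log2 fold change 0.29). *Entpd1*, which encodes CD39, was low, at 10.9, 29.6 and 11.4 in WT and 4.50, 12.8 and 4.42 in UTX TCD libraries (log2 fold change -1.15, adjusted p = 0.131, limma). *Tcf7*, which encodes the progenitor factor TCF1, was high in all 6 libraries, with a log2 fold change of -0.07. *Cxcr6* was present at 12757, 9619 and 13724 in WT and was called lower, at 5286, 5994 and 5695, in UTX TCD libraries. The 7 B cell genes summed to 2970, 2452 and 2815 in WT and 1233, 1099 and 1083 in UTX TCD libraries, with 1 of 5 tested called higher (*Ms4a1*) and 1 lower (*Cd79b*), while *Pax5* and *Ebf1* were too low to be tested. *Cd79b* made up most of that sum in WT, fell from 2502, 1930 and 2465 to 648, 633 and 470, and itself had a first-intron peak lost by -1.24 at 785 bp from the start. The 3 γδ T cell genes summed to 66799, 59404 and 61886 in WT and 63089, 58441 and 57241 in UTX TCD libraries, nearly all of it *Trdc*, and *Sox13* and *Trdv4* were called higher. Sums over the 4 NK cell genes were 46.6, 71.1 and 25.9 in WT and 67.5, 56.1 and 113 in UTX TCD libraries, with *Klre1* called higher. Over the 8 myeloid and dendritic genes they were 820, 837 and 630 against 1109, 855 and 1011, mostly *Cd68*, with *H2-Ab1* called higher and *Csf1r* lower. Over the 3 genes of CD4 and regulatory T cells they were 475, 373 and 442 against 373, 350 and 344, mostly *Foxp3*, with *Cd4* and *Zbtb7b* called lower. Erythroid genes (241, 196 and 169 against 173, 163 and 299, mostly *Alas2*) and stromal genes (31954, 29751 and 32166 against 37871, 38036 and 33925, nearly all *Pecam1*) had 0 calls by limma, with 0 of 2 and 1 of 3 at an unadjusted p under 0.05. The part of such cells in the results was not tested, and in bulk libraries fewer cells of a type and less RNA per cell cannot be told apart.

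Gains outnumbered losses in first introns. Of the 3971 peaks, 2682 (67.5%) had gained and 1289 (32.5%) had lost accessibility in UTX TCD cells. Gained peaks had a median difference of 0.62 and lost peaks one of -0.73, and the range ran from -4.18 to 4.75. An absolute difference over 1 was reached by 602 gained and 394 lost peaks. Gained peaks started from a lower WT concentration, with a median of 7.81 against 8.21 for lost peaks, and they ended at a median of 8.51 in UTX TCD cells while lost peaks ended at 7.40. Sorting peaks by their difference favors such a gap by construction. By concentration over all libraries, the gained share was lowest from 7 to 8 (62.3%) and highest from 10 to 14 (83.9%). For comparison, 64.5% of the 6837 listed peaks in later introns and 85.3% of the 2621 at promoters were gained. First introns therefore lay between those classes, nearer to later introns. Over all 23932 listed peaks 68.8% were gained, and over the 8534 intergenic peaks 65.2%. The excess of gains was thus a trait of the whole list and not particular to first introns.

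The share of gained peaks was higher near the start of the gene. Within 1 kb of the nearest annotated transcription start site (TSS), 320 of 369 first-intron peaks were gained, or 86.7%. The share was 79.6% from 1 to 2 kb, 73.4% from 2 to 5 kb and 64.4% from 5 to 10 kb. It was lowest from 20 to 50 kb, where 486 of 830 peaks were gained (58.6%). Beyond 100 kb it was 71.4%, over 63 peaks in 32 genes, and 8 of those peaks belonged to *Rora*. The median distance was 8676 bp for gained and 13108 bp for lost peaks. The median gain ranged from 0.56 to 0.71 over these classes of distance.

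That gradient was also seen when distance was counted from the start of the intron. The center of 3952 of the 3969 peaks with a sequence (99.6%) lay inside intron 1 of the named transcript in the RefSeq annotation of GRCm38, the build called mm10. Of the 436 peaks within 1 kb of the 5′ splice site 86.9% were gained, as were 59.3% of the 905 peaks 20 to 50 kb into the intron. Introns of at most 10 kb had 80.1% gained peaks, and introns of over 100 kb had 61.5%. The nearest TSS lay downstream of 467 peaks (11.8%), which therefore sat ahead of an alternative or a neighboring start, and 64.0% of these were gained. Later introns had 81.1% gained of 37 peaks within 1 kb, 68.1% of 135 from 1 to 2 kb and 70.9% from 2 to 5 kb. Farther out their share was 63.4% from 20 to 50 kb, 60.8% from 50 to 100 kb and 65.3% beyond 100 kb. The difference between first and later introns was not tested.

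Peaks near a TSS were richer in GC and CpG, whether gained or lost. The 320 peaks gained within 1 kb of a TSS had a median GC content of 60.1% and a median of 20 CpG dinucleotides over the width of the peak, and the 49 peaks lost there had medians of 55.9% and 9. The 1225 peaks gained beyond 10 kb had medians of 46.6% and 5, and the 763 peaks lost beyond 10 kb had 48.9% and 4. Over all 23908 listed peaks with a sequence, the medians were 49.4% and 6. The stretches of 161 bases that follow show the CpG of peaks gained near a TSS and were read from the plus strand of the C57BL/6J reference, with each CG in capitals. The peaks of *Mmp14* (chr14:54432325-54432485) and *Ranbp17* (chr11:33512975-33513135) were gained, at 807 and 698 bp from the TSS, and held 39 and 26 CpG over their full width.
Mmp14: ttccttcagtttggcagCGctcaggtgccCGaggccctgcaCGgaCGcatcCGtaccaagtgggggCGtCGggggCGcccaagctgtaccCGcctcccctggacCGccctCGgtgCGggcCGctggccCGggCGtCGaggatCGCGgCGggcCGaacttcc
Ranbp17: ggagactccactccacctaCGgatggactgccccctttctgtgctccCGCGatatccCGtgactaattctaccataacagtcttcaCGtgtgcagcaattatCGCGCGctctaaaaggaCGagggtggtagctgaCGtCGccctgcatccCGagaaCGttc

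Letters of known binding motifs were counted in the same peaks on both strands. A match describes the sequence and does not show that a factor was bound. The nuclear receptor half-site AGGTCA, which ROR proteins also recognize, was present in 29.5% of lost and 18.1% of gained first-intron peaks, against 20.9% of all listed peaks. The shares were 30.0% and 20.2% when only peaks beyond 10 kb were counted, and 12.2% of 49 lost and 12.8% of 320 gained peaks within 1 kb. The RUNX letters TGTGGT were in 49.5% of lost and 39.5% of gained peaks (39.7% of all listed). Beyond 10 kb these shares were 50.5% and 44.2%, and within 1 kb 36.7% of 49 lost and 20.9% of 320 gained peaks. The KLF letters GGGTGTGG were in 9.63% of lost and 4.85% of gained peaks (5.50% of all listed) and can overlap the RUNX letters, since both contain TGTGG. Their shares were 9.17% and 4.49% beyond 10 kb and 8.16% and 8.12% within 1 kb. The E-box letters CAGCTG were in 28.9% of lost and 23.2% of gained peaks (24.3% of all listed), and the AP-1 letters TGANTCA in 15.9% and 12.7% (12.8% of all listed). The repeat GAAANNGAA of interferon-regulated elements ran the other way, with 11.3% of lost and 16.5% of gained peaks (13.6% of all listed), and with 12.2% and 16.6% beyond 10 kb, but not within 1 kb (14.3% and 10.9%). For the STAT letters TTCNNNGAA, the ETS letters AGGAAG, the NFAT letters TGGAAA, the T-box letters AGGTGTGA, the NF-κB letters GGGANNTTC, the GATA letters AGATAA and the CTCF letters AGGTGGCA, the gained and lost shares lay within 2 percentage points of each other over all first-intron peaks. Among peaks with an absolute difference over 1, however, GATA letters were in 20.3% of lost and 12.3% of gained peaks and ETS letters in 59.6% and 51.5%, while beyond 10 kb ETS letters were in 57.5% of lost and 61.9% of gained peaks. Peaks that hold AGGTCA or its reverse complement, in capitals, came from 3 genes whose first-intron peaks were all lost and whose expression was lower. They lay at *Ubash3b* (chr9:41099275-41099364), *Il6ra* (chr3:89896664-89896769) and *Zfp618* (chr4:62969568-62969673).
Ubash3b: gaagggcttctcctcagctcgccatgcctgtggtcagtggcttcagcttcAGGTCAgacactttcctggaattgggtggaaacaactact
Il6ra: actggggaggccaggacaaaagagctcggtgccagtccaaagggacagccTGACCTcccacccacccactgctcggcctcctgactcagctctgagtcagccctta
Zfp618: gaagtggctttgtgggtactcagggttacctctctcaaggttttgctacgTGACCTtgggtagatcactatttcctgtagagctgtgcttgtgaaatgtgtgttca

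First-intron peaks of 1 gene often shared a direction, and other peaks of the gene did so in part. The 3971 peaks belonged to 2435 gene names, with 5 peaks unnamed, and 743 genes had more than 1. All first-intron peaks were gained in 1706 genes and lost in 523, and 206 genes had both directions. Of 1530 pairs of neighboring peaks in the same gene, 80.9% had the same direction, from 92.8% of pairs at most 1 kb apart to 72.5% of pairs over 20 kb apart. With 67.5% of peaks gained, peaks paired without regard to gene would share a direction in 56.2% of pairs. Promoter peaks are given beside the 85.3% gained over all listed promoter peaks. Among gained-only genes, 274 had a listed promoter peak and in 265 of them (96.7%) every such peak was gained. Among lost-only genes, 90 had one and in 69 (76.7%) every promoter peak was lost, while 21 had gained promoter peaks. In later introns, where 64.5% of all listed peaks were gained, 497 gained-only genes had a listed peak, and all such peaks were gained in 365 (73.4%), all lost in 72 and divided in 60. Of 182 lost-only genes with a later-intron peak, all were lost in 120 (65.9%), all gained in 40 and divided in 22.

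Of the 9 genes with over 10 first-intron peaks, 5 encode transcription factors of T cells, *Foxp1*, *Rora*, *Bcl11b*, *Tox* and *Foxo1*. *Foxp1*, a forkhead factor that maintains T cell quiescence, had 17 such peaks, 15 of them gained, and all 28 of its listed peaks in later introns were gained as well. *Bcl11b*, which is needed for T cell identity, had 14, all gained, with differences from 0.26 to 1.00. *Tox*, a factor of progenitor and exhausted CD8 cells, had 12 gained peaks of 0.36 to 1.58, and *Foxo1*, which drives genes of lymph node homing, had 11 of 0.38 to 0.83. The log2 fold change was 0.33 for *Foxp1*, 0.27 for *Bcl11b* and 0.46 for *Tox*, each under the limit of 0.5, although *Tox* reached 0.53 with the libraries scaled to the same sum. *Foxo1* had 73774, 68351 and 75740 normalized counts in WT and 64818, 67388 and 63734 in UTX TCD libraries, and was not called (log2 fold change -0.15, or -0.09 with the libraries scaled to the same sum). *Fam107b* and *Ext1* had 11 peaks each, with both directions in each gene. *Abtb2* and *Rapgef1* were next with 10 each, in both directions for *Abtb2* and all lost for *Rapgef1*.

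*Rora*, which encodes the nuclear receptor RORα, had 17 first-intron peaks, all gained. They lay in the first introns of 2 transcripts. A transcript with 10 introns held 8 of them, from -255493 to -115627 bp relative to the nearest annotated start, and one with 9 introns held 9, from 8382 to 29897 bp. The strongest, at chr9:69310555-69310955, went from a concentration of 2.78 to 7.48, and a neighbor at chr9:69314534-69314934 from 5.08 to 9.26. *Rora* was counted at 892, 813 and 842 in WT and 1428, 1408 and 1059 in UTX TCD libraries. The groups did not overlap, and the gene was called higher (log2 fold change 0.60, SE 0.12, adjusted p = 0.00389, limma). Both peaks hold the TCF/LEF letters TCAAAG or their reverse complement, shown in capitals for chr9:69310664-69310769 and chr9:69314778-69314883. These letters were in 32.2% of gained, 29.0% of lost and 30.6% of all listed peaks.
Rora first: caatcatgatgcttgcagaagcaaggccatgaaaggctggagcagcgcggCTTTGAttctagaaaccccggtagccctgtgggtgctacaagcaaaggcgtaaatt
Rora second: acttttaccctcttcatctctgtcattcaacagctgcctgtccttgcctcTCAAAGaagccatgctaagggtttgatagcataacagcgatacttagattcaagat

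Blocks of loss were found at *Ubash3b* and *Galnt2*. *Ubash3b*, a phosphatase that restrains T cell receptor signaling, had 12 first-intron peaks, all lost, from -1.69 to -0.39, and no other listed intron or promoter peak. Its counts were 1955, 2222 and 1874 in WT and 835, 884 and 949 in UTX TCD libraries, with no overlap (log2 fold change -1.18, SE 0.09, adjusted p = 1.66e-05, limma). *Galnt2*, an enzyme that starts O-linked glycosylation, had 11 lost first-intron peaks from 5585 to 63361 bp and 4 lost peaks in later introns. It was counted at 30131, 28993 and 32556 in WT and 20602, 22622 and 19667 in UTX TCD libraries. Its log2 fold change of -0.54 passed the limit narrowly and was -0.50 without WT replicate 3 or without UTX TCD replicate 3, and -0.48 with libraries scaled to the same sum, which ended the call.

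The largest single gain was at *Tiam1*, an activator of the GTPase Rac, where a peak at chr16:89958122-89958522, 2505 bp from the TSS, rose from 3.80 to 8.55 in concentration. The other first-intron peaks of *Tiam1* were gained by 0.78 and 2.00. *Tiam1* was counted at 1784, 1583 and 1942 in WT and 2803, 2997 and 2303 in UTX TCD libraries (log2 fold change 0.61, SE 0.11, adjusted p = 0.00229, limma). *Dlg5*, a scaffold protein of cell junctions, had gains of 3.72 and 3.45 at 7491 and 32438 bp. Its counts went from 40.6, 37.5 and 60.2 to 857, 902 and 963, so each UTX TCD library was far above each WT library. Strong gains without expression were also present. *Lmod1* (3.85) and *Adgrb1* (3.19) had at most 5.90 normalized counts in any library. The peak named for *Kcnmb1*, gained by 3.36, lies in the first intron of *Kcnip1*, of which *Kcnip1* was too low to be tested and *Kcnmb1* was not called.

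Several of the largest losses came with lower expression. *Usp28*, a deubiquitinase, lost 3 first-intron peaks by 1 or more, the strongest at chr9:48997751-48998151 from 7.67 to 5.11. Its counts were 28018, 27470 and 28596 in WT and 10561, 10620 and 9880 in UTX TCD libraries (log2 fold change -1.44, SE 0.04, adjusted p = 7.76e-08, limma). *Sestd1* lost 3 peaks, down to -2.83, and was called lower (log2 fold change -1.72, SE 0.12, adjusted p = 9.45e-06, limma). *Zfp618* lost 4 peaks, the strongest from 7.13 to 3.55, and its low counts of 33.7, 25.7 and 36.6 in WT became 4.50, 1.60 and 0 in UTX TCD libraries. Exceptions were *Ndrg3*, with a peak lost by -2.88 and a log2 fold change of -0.50 that fell just short of the limit, and *Acot7*, with 5 lost peaks down to -3.41, a log2 fold change of -0.37 and an adjusted p of 0.0581 (limma). For *Acot7* the log2 fold change was -0.20 without WT replicate 2 and -0.47 (adjusted p = 0.0297, limma) without WT replicate 1, each under the limit of 0.5. *Ndrg3* passed the limit, at -0.50 to -0.53, without WT replicate 1 or 3 or without UTX TCD replicate 1 or 2.

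Joined by gene name, first-intron accessibility and expression ran in the same direction for many genes. Of the 1706 gained-only genes, 1616 were listed and 1250 tested in RNA-seq. Of these 212 (17.0%) were called higher, against 10.5% of all 14459 genes tested, and 48 (3.84%) were called lower, against 7.05% of all. Their median log2 fold change was 0.07, and that of all tested genes was -0.00018. With the libraries scaled to the same sum these medians were 0.14 and 0.06, that of lost-only genes was -0.28, and 1727 genes were called higher and 853 lower in place of 1518 and 1020. Of the 523 lost-only genes, 494 were listed and 443 tested, of which 163 (36.8%) were called lower and 12 (2.71%) higher, with a median of -0.34. In either direction, 17.6% of all tested genes were called. Of the 206 genes with both directions, 184 were tested, 8 called higher and 22 lower. Most tested genes with a changed first-intron peak were thus not called. Whether the sides of gain and loss differed was not tested. Genes whose listed peaks all lay outside first introns were called higher in 15.6% and lower in 8.22% of 5012 tested, and genes without a listed peak in 6.66% and 4.95% of 7570. Genes tested were those with a mean of at least 10 normalized counts, so the 366 gained-only and 51 lost-only genes that were listed but lower than this are in no percentage.

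The share of calls varied with the number of peaks and their distance. Among gained-only genes with 3 or more first-intron peaks, 27 of 107 tested (25.2%) were called higher and 0 lower by limma (16 lower at an unadjusted p under 0.05), against 17.1% higher with 1 peak and 11.3% with 2. Among lost-only genes with 3 or more, 38 of 73 (52.1%) were called lower and 0 higher by limma (2 higher at an unadjusted p under 0.05), against 33.9% lower with 1 peak and 33.3% with 2. Genes with more peaks were also more highly expressed. The median WT mean of tested gained-only genes was 3579 with 1 peak and 11830.5 with 3 or more. For lost-only genes it was 4145 and 12324, and the part of expression in these shares was not tested. Gained-only genes with a peak within 1 kb of the TSS were called higher in 55 of 183 cases (30.1%), and those whose nearest peak was 10 to 50 kb away in 41 of 374 (11.0%). Of the 30 gained-only genes whose nearest peak lay beyond 50 kb, 5 were called higher and 5 lower. In the set within 1 kb, the median WT mean over its 295 listed genes was 23.5 normalized counts, and 112 of them were too low to be tested. Where a gained-only gene also had a listed promoter peak, 77 of 196 (39.3%) were called higher, and where it had none, 135 of 1054 (12.8%). For lost-only genes the shares called lower were 42 of 81 (51.9%) with and 121 of 362 (33.4%) without a listed promoter peak.

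Among called genes with a first-intron peak, the largest increases were those of *Cdc42bpb*, *Mmp14*, *Tlr3*, *Dmrta1*, *Kcnc2*, *Ranbp17*, *Dlg5*, *Nrn1*, *Rnf43* and *Gucy1a1*, and each had gained peaks only. *Dmrta1*, *Kcnc2* and *Ranbp17* had at most 15.8, 5.92 and 4.94 normalized counts in any WT library, so their ranks depend on the pseudocount. The log2 fold change of *Ranbp17*, 4.34, was 5.03 with a pseudocount of 0.5 and 2.71 with 5. *Mmp14*, a membrane-bound matrix metalloproteinase, was counted at 281, 299 and 293 in WT and 7034, 7279 and 8083 in UTX TCD libraries (log2 fold change 4.67, SE 0.08, adjusted p = 3.13e-09, limma). Its first-intron peaks at 807 and 4093 bp were gained by 1.15 and 1.70. *Tlr3*, the receptor for double-stranded RNA in endosomes, went from 18.8, 19.7 and 18.3 to 524, 449 and 464, with 1 peak 108 bp from the TSS gained by 1.30. *Nrn1* had counts of 527, 751 and 532 in WT and 12127, 12271 and 10341 in UTX TCD libraries, and a gain of 0.99. *Rnf43*, a ubiquitin ligase that removes Wnt receptors, had a gain of 0.43 and a log2 fold change of 3.69. *Gucy1a1*, a subunit of guanylate cyclase, had 139, 888 and 153 in WT, where replicate 2 stood apart, and 3079, 3439 and 3397 in UTX TCD libraries, and its log2 fold change of 3.63 was 4.50 without WT replicate 2.

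Among the largest decreases were those of *4933440M02Rik*, *Lhfpl1*, *0610031O16Rik*, *Edaradd*, *Lypd6b*, *Lair1*, *4932438H23Rik*, *Zfp618* and *Dapl1*, and all of these but *4932438H23Rik* had lost peaks only. *Lypd6b*, of the LY6 family, had 6213, 6233 and 6366 in WT and 288, 374 and 216 in UTX TCD libraries with 4 lost peaks, although its 3 listed peaks in later introns were gained. *Lair1*, an inhibitory receptor for collagen, was counted at 1020, 759 and 1040 in WT and 63.0, 76.9 and 40.5 in UTX TCD libraries, with a modest loss of -0.54. *Lhfpl1* had 51.5, 46.4 and 68.6 in WT and was listed at 0 in all 3 UTX TCD libraries. *0610031O16Rik* went from 88.2, 65.2 and 71.7 to 2.25, 1.60 and 0. Whether counting used strand is not given in the sources used here, so reads of such noncoding genes cannot be told apart from those of an overlapping gene.

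A smaller set ran against its first intron. *Lif*, *Soga1*, *Wdr86* and *Ldhd* were among the genes called higher with lost first-intron peaks only. *Lif*, *Soga1* and *Ldhd* each had a gained peak in a later intron, *Soga1* also had a gained promoter peak, and the lost peak named for *Ldhd* lies in an intron of *Znrf1*. *Wdr86* was low, at 3.96, 14.8 and 0.763 in WT and 29.2, 16.8 and 26.5 in UTX TCD libraries, and lost its call when any of WT replicates 1 and 3 or UTX TCD replicates 1 to 3 was left out, with an adjusted p of up to 0.0864 (limma). Its log2 fold change of 2.25 was 3.05 without WT replicate 2 and 1.47 without WT replicate 3. In the other direction, *Greb1* had gains of 1.66 and 0.71 but counts of 126, 149 and 129 in WT and 27.0, 16.8 and 11.8 in UTX TCD libraries. *Frmd5* (gain 0.74), *Nmnat2* (gain 0.61), *Spats2l* (gain 1.13) and *4932438H23Rik* (gain 0.99) were also called lower.

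Gene lists are described by their counts, to be read beside 67.5% gained among all first-intron peaks and 10.5% called higher and 7.05% called lower among all genes tested, and no list was tested as a group. Calls are counted over whole lists, and many called members had no listed first-intron peak. Scaling the libraries to the same sum raised the list medians by about 0.06, the shift of all genes, which turned the sign for cytokine genes (0.04) and for Wnt and Notch genes (0.03). Of 25 progenitor transcription factors, 11 had first-intron peaks, gained only in 9 genes and in both directions in 2. Of their 71 peaks 68 were gained, most of them in *Foxp1*, *Bcl11b*, *Tox* and *Foxo1*. All 25 were tested, 4 (16.0% against 10.5% of all) were called higher and 0 (against 7.05%) lower by limma, with 2 lower at an unadjusted p under 0.05, and the median log2 fold change was 0.33. Of the 4, 1 had a first-intron peak. *Bach2*, a repressor that preserves stem-like T cells, had gains of 0.43 to 1.66 at 6440 to 64378 bp, and was called higher at 0.59. *Ets1* had 6 gained peaks and overlapping counts in the 2 genotypes. For effector transcription factors, 23 of 31 peaks were gained, 17 of them in *Rora*, and 9 of 27 tested genes were called higher (33.3% against 10.5% of all) and 2 lower (7.41% against 7.05%), with a median log2 fold change of 0.24. First-intron peaks were listed for 2 of those 9 and 1 of those 2. The lower one, *Rbpj*, which carries Notch signals in the nucleus, had a gain of 0.42 and a log2 fold change of -0.74. *Runx3*, which sets cytotoxic fate, had 4 lost peaks and 1 gained, the strongest losses -1.50 and -1.49, while its counts were 38797, 38715 and 36802 in WT and 42534, 41420 and 40390 in UTX TCD libraries, apart but with a log2 fold change of 0.12, under the limit.

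Cytokine receptors and signaling genes had 20 of 33 peaks gained over 14 genes (60.6%, near the 67.5% of all first-intron peaks). Of 34 tested genes, 5 were called higher and 5 lower, where 10.5% and 7.05% of all genes were, and the median log2 fold change was -0.02. First-intron peaks were listed for 1 of the 5 higher and 4 of the 5 lower genes. *Il6ra*, *Ifngr1* and *Il12rb2*, receptors for IL-6, IFN-γ and IL-12, had lost peaks only and were called lower. The fourth lower gene, *Ifngr2*, the other chain of the IFN-γ receptor, ran against its only first-intron peak, a gain of 0.32. Its log2 fold change of -0.53 was -0.46 with libraries scaled to the same sum, -0.49 without WT replicate 3 and -0.47 without UTX TCD replicate 3, each under the limit for a call. *Tgfbr3*, a coreceptor of TGF-β, had lost peaks only too, of -1.05 and -0.69, with a log2 fold change of -0.27, under the limit. *Il6ra* lost 3 peaks, at -0.80, -0.42 and -0.30, and was counted at 32741, 26639 and 33094 in WT and 19057, 19011 and 19526 in UTX TCD libraries (log2 fold change -0.68, SE 0.08, adjusted p = 0.000172, limma). *Il12rb2* had 1112, 1161 and 1033 in WT and 567, 501 and 636 in UTX TCD libraries, with a loss of -0.73. *Smad3*, which carries TGF-β signals, was divided along its intron. Its 3 peaks within 20329 bp of the TSS were gained by 0.32 to 0.44, and its 4 peaks from 25088 to 49546 bp were lost, from -1.62 to -0.76. Its log2 fold change was 0.30, under the limit for a call.

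Adhesion and migration genes had 12 of 21 peaks gained over 11 genes (57.1% against 67.5% of all first-intron peaks). *Itga6* held 4 of the 9 lost peaks. Of 29 tested genes, 3 were called higher (10.3% against 10.5% of all) and 12 lower (41.4% against 7.05%), with a median log2 fold change of -0.36. Of these, 2 higher and 3 lower genes had a first-intron peak. The lower ones included *Cd9*, a tetraspanin, with a loss of -0.57 and a log2 fold change of -3.53. *Itga6*, an integrin chain that binds laminin, had 4 lost peaks and 1 gained. It was counted at 41152, 35847 and 40731 in WT and 25497, 26201 and 24150 in UTX TCD libraries (log2 fold change -0.63, SE 0.06, adjusted p = 6.19e-05, limma). *Cxcr5*, the receptor that guides cells to B cell follicles, had a gain of 0.66 and was called higher, with 2658, 2788 and 2298 in WT and 6429, 6344 and 8593 in UTX TCD libraries. *Itgb3* had a gain of 1.07 and a log2 fold change of 0.55, which was 0.47 and no longer called without UTX TCD replicate 3. *Ccr7* and *Itga5* had gained peaks and overlapping counts.

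Among genes of T cell receptor signaling and costimulation, 15 of 41 had first-intron peaks, with 27 of 46 gained (58.7% against 67.5% of all first-intron peaks). *Ubash3b* alone held 12 of the 19 lost peaks, so the lower share rests largely on that gene. All 41 were tested, 5 were called lower (12.2% against 7.05% of all) and 0 higher (against 10.5%) by limma, with 5 higher at an unadjusted p under 0.05, and the median log2 fold change was -0.14. Of the 5, 3 had a first-intron peak. *Pdcd1*, which encodes PD-1, lost its only first-intron peak, at chr1:94042277-94042677, by -1.47. Its counts were 373, 489 and 399 in WT and 236, 199 and 369 in UTX TCD libraries, so the groups were close (log2 fold change -0.69). The call (adjusted p = 0.0351, limma) was lost, at 0.0549 to 0.117, when any of WT replicates 1 to 3 or UTX TCD replicates 1 and 2 was left out, and at 0.0595 with libraries scaled to the same sum. Without UTX TCD replicate 3 the log2 fold change was -0.94. *Icos* ran against its peak, with a gain of 0.70 and counts of 8687, 9532 and 8130 in WT and 5605, 5392 and 4859 in UTX TCD libraries. Cytotoxic and secreted effector genes had 5 of 7 peaks lost over 5 genes, and 4 of 24 tested genes were called higher (16.7% against 10.5% of all) and 5 lower (20.8% against 7.05%), with a median log2 fold change of -0.29, and 0 of those 4 and 2 of those 5 had a first-intron peak. *Xcl1*, a chemokine that attracts dendritic cells, had a loss of -0.71 and counts of 992, 1358 and 978 in WT and 220, 227 and 447 in UTX TCD libraries (log2 fold change -1.95). *Ifng* had a loss of -0.81, with overlapping counts of 10.9, 20.7 and 32.8 in WT and 6.75, 10.4 and 31.7 in UTX TCD libraries.

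First-intron peaks were listed for 15 of the 34 chromatin regulators, gained only in 14 and lost only in 1, and 23 of their 25 peaks were gained (92.0% against 67.5% of all first-intron peaks). Of 33 genes tested, 0 were called in either direction by limma, where 17.6% of all genes were, with 13 higher and 5 lower at an unadjusted p under 0.05, and the median log2 fold change was 0.08. *Kmt2c*, which encodes the methyltransferase MLL3 of the complex that holds UTX, had gains of 1.08 and 0.42 and counts of 123583, 129359 and 123629 in WT and 165690, 167832 and 150602 in UTX TCD libraries (log2 fold change 0.36, SE 0.05, adjusted p = 0.000881, limma). The groups were apart but the change was under the limit of 0.5. The histone demethylase gene *Kdm5b* had gains of 1.30 and 1.10 and a log2 fold change of 0.20, and the acetyltransferase gene *Ep300* a gain of 1.30 with overlapping counts. The gene with losses was *Hdac4*, at -1.34 and -0.91, with all 11 of its listed peaks in later introns lost. It was counted at 7572, 7583 and 7534 in WT and 5367, 5428 and 5580 in UTX TCD libraries, apart but under the limit (log2 fold change -0.47).

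In the list of survival and death genes, 9 of 13 peaks were gained over 7 genes, and 2 of 20 tested genes were called higher and 1 lower, each near the 67.5%, 10.5% and 7.05% over all, with a median log2 fold change of -0.07. Both higher genes had a first-intron peak. *Bcl2*, which blocks mitochondrial death, had gains of 0.81 and 0.91 at 6829 and 7558 bp, smaller gains of 0.45 and 0.41 at 25940 and 52436 bp, and losses of -0.49 and -0.44 at 74173 and 77324 bp. It was called higher, with 18200, 17081 and 17912 in WT and 40707, 39557 and 49953 in UTX TCD libraries. *Birc3*, an inhibitor of apoptosis, had 2 gains of 0.66 and 0.71 and overlapping counts. Wnt and Notch signaling genes had first-intron peaks in 4 of 24 genes, with 5 of 7 peaks gained (71.4%). Of 22 tested genes 3 were called higher (13.6%) and 2 lower (9.09%), near the 10.5% and 7.05% over all, with a median log2 fold change of -0.03, and 1 of the 3 and 0 of the 2 had a first-intron peak. *Lrp6*, a coreceptor for Wnt proteins, had a gain of 0.86 and overlapping counts. *Notch3*, a receptor of the Notch pathway, had a loss of -0.66 and counts of 223, 214 and 243 in WT and 151, 197 and 84.8 in UTX TCD libraries. It was not called (log2 fold change -0.73, adjusted p = 0.0628, limma), and UTX TCD replicate 3 was the lowest library. The log2 fold change was -0.39 (adjusted p = 0.102, limma) without UTX TCD replicate 3 and -0.99 (adjusted p = 0.0202, limma), which was called, without UTX TCD replicate 2.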

How the data were processed

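RNA-seq and ATAC-seq were analysed from the deposited tables. For RNA-seq the authors aligned reads to mm10 with HISAT2 (version 2.2.1 per the submitters' processing notes), counted them per gene and normalized with DESeq2, so the deposited signal is the gene count divided by 1 factor per library. For ATAC-seq the authors aligned trimmed reads with Bowtie2, dropped duplicates and multiple mappings, used MACS2 for peak calling, DiffBind for the genotype comparison and HOMER for annotation. A shift for the transposase is not given in the sources used here. The authors' concentrations are log2 group means. Their fold change, p-value and FDR columns were not used, beyond finding that 0 listed peaks had an FDR of 0.05 or more. In R 4.3.3, limma 3.58.1 with a trend was applied to genes with a mean of at least 10 normalized counts, on log2(normalized count + 1), a scale that understates changes of low genes, with genotype as the only term and Benjamini-Hochberg adjustment. Depth was taken from the smallest step of each library's values. Peak sequences came from GRCm38.p6, and 2 peaks on unplaced scaffolds had none. Genes were joined by the deposited gene name, and 2304 of 2435 names (94.6%) were listed in RNA-seq.

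Named peaks were the 10 largest gains and 10 largest losses with a higher group mean of at least 6. Named genes were the 10 with most first-intron peaks (a tie for the last place was settled by alphabet, and *Rapgef1*, *Ifngr2* and *Rbpj* were added after their values were seen), the 10 largest called increases and 10 largest decreases without overlap, the 5 largest on each side that ran against their peaks, up to 6 genes per list with an absolute difference over 0.5, *Kdm6a* and the sort markers. Not every item the rule selects is described. Members and lists were chosen with earlier results of these data known. The methods describe the ATAC-seq replicates as biological. For the RNA-seq replicates, on which the p-values rest, they give no such statement, and a legend that gives the same number per genotype for both assays does not say that each RNA-seq library was a separate mouse. The p-values thus measure the spread between these samples, which may be technical, and whether mice were pooled is not given in the sources used here.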

Additional observations from a re-analysis of the deposited data

How the results depend on the processing

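Counts of called genes kept within 1.5 times of the reported value under the pseudocounts of 0.5 and 5, the filters on low values, scaling to the same sum and each library left out. Leaving out 1 library gave 2164 to 2570 called genes in all, 184 to 204 gained-only genes called higher and 150 to 164 lost-only genes called lower. Without a limit on the fold change these counts were 5887, 414 and 267, and with a limit of 1 they were 1253, 115 and 93, by construction. With only peaks of an absolute difference over 1 the gained-only and lost-only counts were 85 of 319 (26.6%) and 97 of 225 (43.1%). With only peaks over 10 kb from the TSS they were 73 of 549 (13.3%) and 85 of 240 (35.4%). Fewer genes were left in each, and the shares differed from the 17.0% and 36.8% over all first-intron peaks. The share of gained peaks was 64.8% for absolute differences over 0.5, 60.4% over 1, 73.5% within 10 kb, 61.6% beyond 10 kb and 72.5% with 1 peak a gene, and it stayed above 50% in each. Naming genes by the transcript that holds the peak gave 213 and 164. The replicate numbers were not treated as pairs in the main fit. Same-numbered libraries deviated from their group means with r = 0.305, -0.200 and 0.0897. With means of only 3 libraries, these values cannot decide whether the samples were paired. As a hint from the data, not every library correlated best with its own number. With a replicate block the counts were 2474, 208 and 160. Among 90 named genes, the sign of a small change that was not called reversed for 4, and the cause was not tested. For *Lrp6* the log2 fold change was 0.0202 with libraries scaled to the same sum. With 1 library left out, it ranged from -0.135 to 0.00128 for *Ets1* (above 0 without WT replicate 2), from -0.175 to 0.206 for *Kcnmb1* (-0.175 without WT replicate 2 and -0.0437 without UTX TCD replicate 3) and from -0.171 to 0.259 for *Socs2* (-0.0523 without WT replicate 1 and -0.171 without UTX TCD replicate 2). The planned count tests with edgeR and DESeq2 were not run. Accessibility has no values per library here, so its spread and depth are unknown.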
